A study of Homo sapiens with 18 samples.

Results

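The 37 genes described here encode the enzymes of glycolysis, the carriers of glucose and lactate, the kinases that steer glucose carbon, the oxygen-sensing proteins and a set of well known hypoxia targets. They were listed by symbol and found by their Ensembl gene identifiers among the 58735 rows of the gene table, and all 37 have a row. The measurements are mRNA levels in RPMI-8402, a cultured line established from human T-ALL (T-cell acute lymphoblastic leukaemia). Cells labelled NT carried a non-targeting control and have the genotype WT in the labels, and cells labelled KO had the gene PIK3R1 knocked out, which encodes a regulatory subunit of phosphoinositide 3-kinase. Both were exposed for 24 h to the vehicle DMSO, to CB-103, which blocks the NOTCH transcription complex, or to the gamma-secretase inhibitor LY3039278 (GSI), which blocks the cleavage that releases the active NOTCH fragment. That gave 6 groups of 3 libraries, 18 in all: NT with DMSO, NT with CB-103, NT with GSI, and the same 3 treatments in KO. The sources used here state no doses, so the inhibitors are set side by side and not ranked by potency. The labels do not say whether KO is a clone or a pool, or whether the replicates were separate cultures, so the p-values measure the spread between these libraries, which may be technical.

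Glycolysis splits glucose into pyruvate in the cytosol, and lactate dehydrogenase then turns pyruvate into lactate and restores the NAD+ that the pathway consumes. Dividing lymphoblasts, T-ALL cells among them, run this route at a high rate even with oxygen present. The transcription factor HIF1, made of HIF1A and ARNT, is known to drive most of these genes: prolyl hydroxylases of the EGLN family mark HIF1A for destruction while oxygen is plentiful, and HIF1 binds DNA at short elements with the core ACGTG. MYC, a known NOTCH target in T-ALL, binds the E-box CACGTG, which contains that same core, and shares many glycolytic targets with HIF1.

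Promoter windows of 5 members are shown, the HK2, PGK1 and LDHA enzymes and the hypoxia targets BNIP3 and ANKRD37. They were chosen because they hold the motif described below, so they are not typical of the list: the windows of TPI1, PGAM1, ENO1, PKM and LDHB, which also fell with CB-103, hold 0 copies of ACGTG. Each is 1 RefSeq window (GRCh38.p14) that runs from 250 bases before to 50 bases after a gene start, 5′ to 3′ on the strand of the gene. Capitals mark the HIF core ACGTG, its reverse complement CACGT, or the E-box CACGTG where these overlap. The windows are HK2 at chr2:74833877-74834176 on the plus strand, PGK1 at chrX:78103998-78104297 on the plus strand, LDHA at chr11:18394313-18394612 on the plus strand, BNIP3 at chr10:131981874-131982173 on the minus strand and ANKRD37 at chr4:185396591-185396890 on the plus strand.
HK2: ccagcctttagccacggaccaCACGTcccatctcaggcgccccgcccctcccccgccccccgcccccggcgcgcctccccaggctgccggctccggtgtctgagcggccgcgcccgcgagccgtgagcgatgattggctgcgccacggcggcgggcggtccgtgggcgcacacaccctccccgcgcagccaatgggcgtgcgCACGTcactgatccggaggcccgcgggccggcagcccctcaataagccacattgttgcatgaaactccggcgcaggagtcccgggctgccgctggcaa
PGK1: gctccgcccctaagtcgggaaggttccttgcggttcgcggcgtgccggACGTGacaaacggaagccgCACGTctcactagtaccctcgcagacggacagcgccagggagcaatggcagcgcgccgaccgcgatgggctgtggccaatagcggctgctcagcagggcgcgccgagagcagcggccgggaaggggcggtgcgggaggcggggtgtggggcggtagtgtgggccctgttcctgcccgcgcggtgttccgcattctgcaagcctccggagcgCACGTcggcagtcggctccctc
LDHA: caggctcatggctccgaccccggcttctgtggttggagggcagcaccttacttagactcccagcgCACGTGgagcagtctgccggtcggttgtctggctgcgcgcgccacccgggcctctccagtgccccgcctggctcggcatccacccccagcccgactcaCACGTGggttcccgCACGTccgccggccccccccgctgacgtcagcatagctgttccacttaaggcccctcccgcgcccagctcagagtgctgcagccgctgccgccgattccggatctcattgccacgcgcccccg
BNIP3: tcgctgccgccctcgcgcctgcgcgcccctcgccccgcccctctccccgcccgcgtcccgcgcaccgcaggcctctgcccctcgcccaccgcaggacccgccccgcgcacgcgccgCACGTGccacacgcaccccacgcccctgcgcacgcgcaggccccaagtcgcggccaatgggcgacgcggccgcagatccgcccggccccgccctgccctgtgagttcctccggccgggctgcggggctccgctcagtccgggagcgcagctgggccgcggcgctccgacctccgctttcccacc
ANKRD37: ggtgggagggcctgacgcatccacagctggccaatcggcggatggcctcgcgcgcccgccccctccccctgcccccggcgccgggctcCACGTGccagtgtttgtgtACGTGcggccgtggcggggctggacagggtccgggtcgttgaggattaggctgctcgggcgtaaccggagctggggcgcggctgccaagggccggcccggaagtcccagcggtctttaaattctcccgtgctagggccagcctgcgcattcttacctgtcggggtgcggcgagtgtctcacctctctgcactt

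Of the 37 genes, 32 matched an entry of that promoter table, and PFKFB2, VEGFA, SLC16A1, NDRG1 and SLC2A3 did not. Where a gene had several windows, the one nearest the start of its most abundant coding transcript was taken. That window need not lie at that start: for PGK1 it is 193509 bases away, for PFKM 3417, for EGLN1 2757, for PGAM1 1658 and for SLC16A3 1212. ACGTG, searched on both strands, lay in 14 of the 32 windows (43.8%), against 21.4% of all 35116 windows of 300 bases in the table. The E-box CACGTG, every copy of which also counts as 1 ACGTG place, lay in 5 of the 32 (15.6%), against 7.26% of all windows. With every window of these genes counted, as in the whole table, ACGTG lay in 24 of 62 (38.7%) and CACGTG in 8 of 62 (12.9%). Those 5 were ALDOC, GAPDH, LDHA, BNIP3 and ANKRD37. LDHA and PGK1 held the most ACGTG places, with 3 each, and HK2, ALDOC, PDK1 and ANKRD37 held 2. A match is a description of the letters and says nothing of whether a factor binds there.

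Total counts ran from 30416183 to 43558387 per library. T-lineage markers such as CD3E and LCK were found in every library, CD1E was at 0 in 16 of the 18, and the summed level of the T-lineage list was lowest in NT with CB-103 (1310 to 1460 CPM, counts scaled to the library total) and highest in NT with DMSO (2620 to 2650 CPM). The summed B-cell markers stayed at or below 5.67 CPM, the myeloid at or below 40.4 CPM (highest in KO with CB-103), the erythroid at or below 21.3 CPM with HBB, HBA1 and HBG1 at 0 in all 18 libraries, and the adherent-cell markers at or below 26 CPM. The highest myeloid sum was mostly CD68 (mean 34.9 CPM in KO with CB-103), and no other myeloid marker had a group mean above 1.55 CPM. EPOR (at most 20.4 CPM) and COL1A1 (at most 22.3 CPM) made up most of the erythroid and adherent-cell sums. Mitochondrially encoded genes took a higher share of the counts in NT than in KO (mean 3.34% against 1.79% with DMSO, 5.23% against 2.24% with CB-103) and that share spread most in NT with GSI, from 1.90% to 5.51%. PIK3R1 itself measured 44.3, 45.6 and 42.5 CPM in NT with DMSO and 23.1, 21.4 and 23.2 CPM in KO with DMSO, so transcripts remained in the cells labelled KO. Under CB-103 its levels came close, at 30.9, 33.5 and 29.1 CPM in NT and 25.9, 29.9 and 27.6 CPM in KO. All levels below are CPM scaled by edgeR's TMM factors unless a sentence names TPM.

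With CB-103 the glycolytic enzymes fell almost throughout: 16 of the 17 from hexokinase to lactate dehydrogenase were lower in NT cells and 13 in KO cells. Of 36 members tested in NT cells, 24 fell and 8 rose at an adjusted p under 0.05 (edgeR quasi-likelihood test, Benjamini-Hochberg over 17346 genes), where 28.7% of all tested genes fell, 29.5% rose and 58.2% were called in either direction. The members' median log2 fold change was -0.48, against 0.04 over all tested genes. In KO cells 19 fell and 7 rose (background 23.7% lower, 24.9% higher, 48.6% in either direction), with a median of -0.36 against -0.01. A change of at least 2-fold was called for 10 members with CB-103 in NT (background 17.9%) and 4 in KO (background 9.87%). The members are more abundant than most genes, with a median level of 89.8 CPM against 13.7 CPM over all tested genes, and calls are easier to reach at higher counts. In bulk libraries, fewer cells of a type and less RNA per cell cannot be told apart.

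The changes with GSI were mostly falls as well. Of the 17 enzymes from hexokinase to lactate dehydrogenase, 13 were lower and 1 higher with GSI in NT cells, and 7 lower and 1 higher in KO cells. In NT cells 19 members fell and 2 rose (background 15% lower, 9.67% higher, 24.7% in either direction), and the median was -0.35 against 0.01 over all genes. In KO cells 12 fell and 2 rose (background 9.58% lower, 9.69% higher, 19.3% in either direction), with a median of -0.11 against -0.004. The direct comparison of CB-103 with GSI, at doses not given, had 21 members lower and 9 higher with CB-103 in NT (background 27.1% and 29.2%, 56.3% in all) and 13 lower and 9 higher in KO (background 23.1% and 24.7%, 47.9% in all). At least 2-fold changes were called for 1 member with GSI in each genotype (VEGFA, background 2.94% in NT and 1.86% in KO), and for 5 members in NT and 4 in KO in the direct comparison (background 16% and 9.8%). Both inhibitor comparisons of a genotype use the same 3 DMSO libraries.

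**Figure D1:**
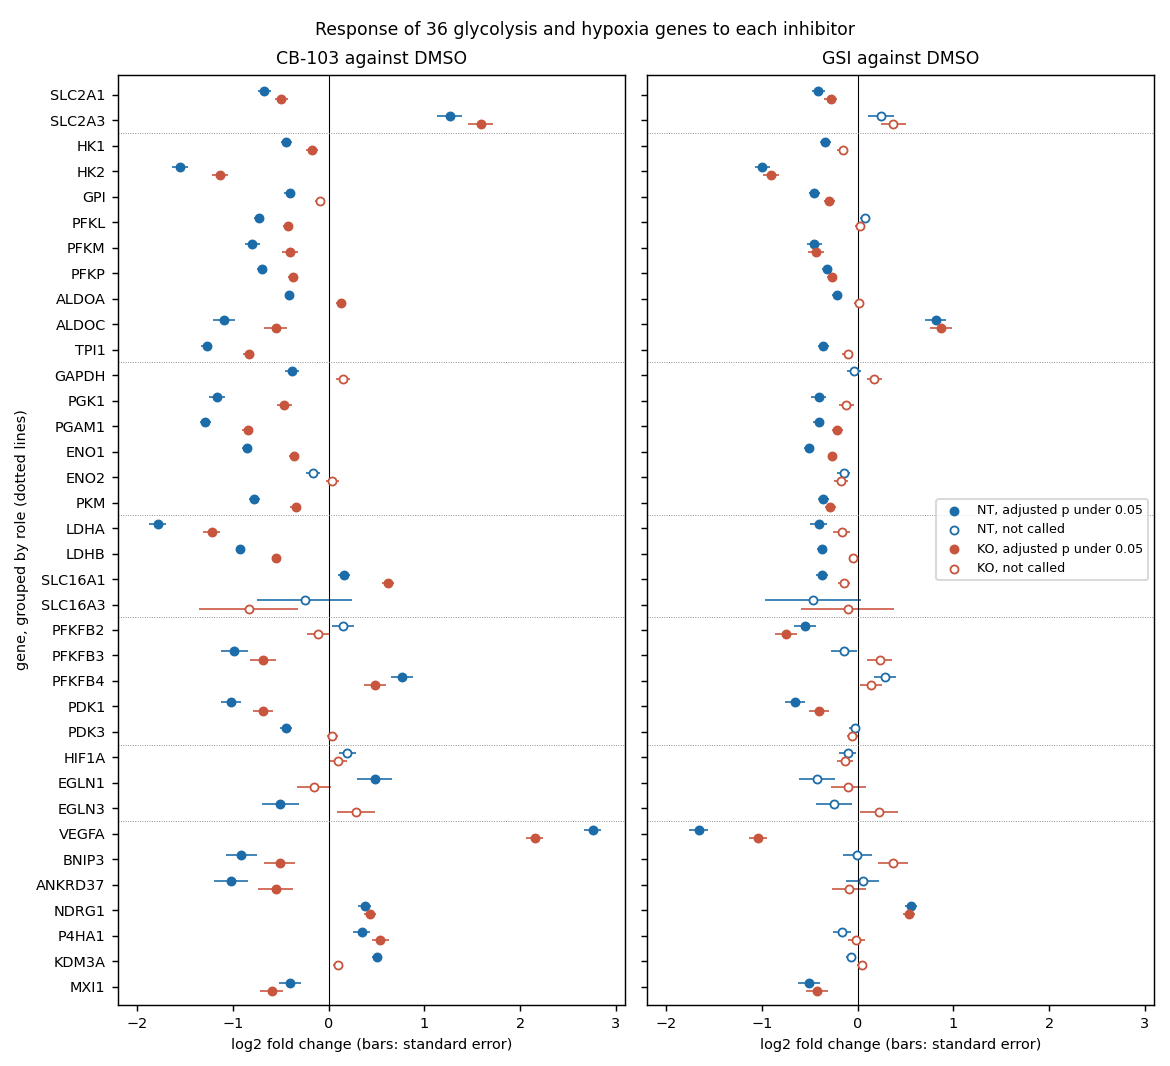
Log2 fold change (x axis, bars are 1 standard error) of each of the 36 tested genes (y axis, by role) for CB-103 and for GSI against DMSO, in NT (blue) and KO (red), filled where the adjusted p was under 0.05. Most enzymes sit left of 0 with CB-103, from -1.79 for LDHA, while VEGFA reaches 2.76 with CB-103 and -1.66 with GSI in NT cells.

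With DMSO, 9 members were lower and 5 higher in KO than in NT (background 11.7% and 9.78%, 21.4% in all). Under CB-103 17 were higher and 4 lower in KO (background 20.4% and 16.5%, 37% in all), and under GSI 10 were higher and 4 lower (background 18.8% and 15%, 33.8% in all). At 2-fold or more the called members were 0 under DMSO (background 3.34%), 0 under CB-103 (5.34%) and 1 under GSI (4.59%). These 3 comparisons use separate libraries, and the mean mitochondrial share was lower in KO in each (3.79% in NT and 2.46% in KO under GSI, where the libraries overlapped). With the mitochondrially encoded genes taken out of the counts, the numbers called were 15, 21 and 14, against 14, 21 and 14 with them.

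The glucose transporters moved in opposite directions. SLC2A1 (GLUT1), the main carrier of proliferating cells, measured 61.8, 52.03 and 54.97 CPM in NT with DMSO and 36.2, 33.3 and 36.2 CPM with CB-103. It fell with CB-103 (log2 fold change -0.67 ± 0.07 SE, adjusted p = 1.3e-07) and with GSI (-0.41 ± 0.07 SE, adjusted p = 2.3e-04), and in KO cells by 0.50 and 0.28 on the log2 scale. SLC2A3 (GLUT3), the high-affinity carrier of neurons and lymphocytes, measured 15.02, 16.8 and 14.2 CPM with DMSO and 35.95, 35.7 and 38.8 CPM with CB-103 in NT. In KO it measured 13.3, 10.99 and 14.1 CPM with DMSO and 42.9, 28.96 and 43.4 CPM with CB-103. Every CB-103 library stood above every DMSO library of its genotype, although KO replicate 2 with CB-103 lay well below the other two. With GSI SLC2A3 measured 18.3, 20.2 and 15.8 CPM in NT and 16.2, 16.8 and 16.7 CPM in KO, below the CB-103 libraries of the same genotype. SLC2A3 rose by 1.27 ± 0.13 SE (adjusted p = 1.7e-07) in NT and 1.59 ± 0.13 SE (adjusted p = 1.8e-08) in KO, while its GSI changes (0.24 in NT, 0.37 in KO) were not called. On the TPM scale, which corrects for transcript length, SLC2A3 made up 18.5 ± 2.26% (SD, n = 3) of the summed level of the pair in NT with DMSO, 46.4 ± 1.12% with CB-103 and 26.1 ± 2.17% with GSI. Gene levels in TPM sum all transcripts, coding or not. In NT with DMSO, 16.3 of the 27.9 TPM of SLC2A1 were assigned to a transcript annotated for nonsense-mediated decay.

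The 9 genes from hexokinase to the triose phosphates all fell with CB-103 in NT cells, by between 0.41 and 1.56 on the log2 scale. HK2, the hexokinase that is switched on in fast-growing cells and traps glucose in the cell by phosphorylating it, measured 50.8, 50.9 and 49.5 CPM with DMSO, 17.4, 17.9 and 16.1 CPM with CB-103 and 24.03, 27.7 and 24.1 CPM with GSI in NT. In KO it measured 43.9, 36.9 and 39.7 CPM with DMSO, 19.4, 16.8 and 18.4 CPM with CB-103 and 23.4, 21.5 and 19.2 CPM with GSI. In both genotypes the DMSO libraries stood clear above all inhibitor libraries, and with GSI HK2 changed by -0.996 ± 0.08 SE (adjusted p = 7.6e-08) in NT and -0.91 ± 0.08 SE (adjusted p = 4.4e-07) in KO. It was the member with the largest fall after GSI among the enzymes in both genotypes. HK1, the constitutive hexokinase, measured 261, 254 and 246 CPM with DMSO and 200.4, 184 and 175 CPM with CB-103 in NT, and 239, 218 and 227 and 218, 186 and 202 CPM in KO. It changed by -0.44 with CB-103 and -0.34 with GSI in NT. The HK2 share of the pair on the TPM scale was 12.6 ± 0.179% (SD, n = 3) with DMSO, 6.25 ± 0.327% with CB-103 and 8.36 ± 0.53% with GSI in NT.

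Phosphofructokinase, which commits sugar to glycolysis, has 3 genes, and all fell with CB-103 in both genotypes while 2 of them fell with GSI. PFKL, the liver-type subunit, fell with CB-103 (NT -0.73 ± 0.05 SE, adjusted p = 1.5e-09) and had a GSI value of 0.08 in NT and 0.02 in KO, neither called. PFKL measured 145, 158 and 149 CPM with DMSO and 86.3, 95.99 and 90.8 CPM with CB-103 in NT, and 149, 155 and 155 and 117, 113 and 111 CPM in KO. PFKM and PFKP, the muscle and platelet subunits, fell with both inhibitors: in NT, PFKM changed by -0.80 with CB-103 and -0.45 with GSI, and PFKP by -0.70 and -0.32. PFKM measured 202, 184 and 172 CPM with DMSO and 118, 97.4 and 105 CPM with CB-103 in NT, and 187, 176 and 156 and 134, 125 and 134 CPM in KO, and 127, 123 and 133 CPM in KO with GSI. PFKP measured 294, 303 and 287 CPM with DMSO and 189, 184 and 172 CPM with CB-103 in NT, and 327, 301 and 303 and 242, 221 and 257 CPM in KO. GPI, the isomerase that turns phosphorylated glucose into phosphorylated fructose, fell in NT with CB-103 (-0.41) and with GSI (-0.46), but in KO only its GSI change was called (-0.30, against -0.09 with CB-103). GPI measured 354, 322 and 324 CPM with DMSO and 263, 249 and 241 CPM with CB-103 in NT, and 341, 316 and 312 and 318, 284 and 308 CPM in KO. TPI1, which interconverts the triose phosphates, measured 681, 657 and 626 CPM with DMSO and 289, 262 and 259 CPM with CB-103 in NT, a change of -1.28 ± 0.06 SE (adjusted p = 2.3e-12). It held 489, 544 and 497 CPM in NT with GSI, and 641, 594 and 608 CPM with DMSO and 347, 328 and 356 CPM with CB-103 in KO.

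Of the aldolases, which cut fructose bisphosphate, ALDOC moved in opposite directions with the inhibitors and ALDOA did not. ALDOC, the aldolase isoform best known from brain, measured 20.9, 23.2 and 19.9 CPM in NT with DMSO, 10.8, 9.84 and 9.21 CPM with CB-103 and 39.1, 36.9 and 36.6 CPM with GSI. The KO libraries held 14.2, 12.3 and 11.5 CPM with DMSO, 8.39, 8.30 and 9.15 CPM with CB-103 and 27.1, 24.04 and 18.5 CPM with GSI. In each genotype the 3 treatments did not overlap, with CB-103 lowest and GSI highest. ALDOC fell with CB-103 (-1.10 ± 0.12 SE, adjusted p = 2.1e-07 in NT, -0.56 ± 0.12 SE, adjusted p = 8.0e-04 in KO) and rose with GSI (0.82 ± 0.11 SE, adjusted p = 2.8e-05 in NT, 0.87 ± 0.11 SE, adjusted p = 3.0e-05 in KO), and the direct contrast of CB-103 with GSI was -1.91 ± 0.12 SE (adjusted p = 1.3e-10) in NT. It is a minor isoform: on the TPM scale it gave 2.96 ± 0.192% (SD, n = 3) of the ALDOA and ALDOC sum in NT with DMSO, 1.86 ± 0.0741% with CB-103 and 5.91 ± 0.467% with GSI. ALDOA, the main isoform, fell with CB-103 in NT, from 668, 671 and 654 to 517, 503 and 477 CPM (-0.41 ± 0.05 SE, adjusted p = 1.1e-06). It was lower with GSI in NT too, with a mean of 570 CPM against 664.6 CPM with DMSO and no overlap of libraries. In KO the ALDOA means were 631.7 CPM with GSI and 627.9 CPM with DMSO, and the libraries overlapped. It measured 618, 640.4 and 626 CPM with DMSO and 683, 646 and 729.9 CPM with CB-103 in KO, where its rise of 0.13 ± 0.05 SE (adjusted p = 0.041) was lost without KO DMSO replicates 1, 2 and 3 or KO CB-103 replicates 1 and 3 (adjusted p = 0.0745 to 0.275).

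Of the 6 genes from glyceraldehyde phosphate to pyruvate, 5 fell with CB-103 in NT and 4 with GSI. PGK1, the first ATP-yielding kinase of the pathway, measured 963, 824 and 783 CPM with DMSO, 416, 350.1 and 376 CPM with CB-103 and 659, 669 and 606 CPM with GSI in NT. In KO the levels were 873, 752 and 764 CPM with DMSO, 606, 545 and 581 CPM with CB-103 and 769.9, 715 and 713 CPM with GSI. With CB-103 PGK1 changed by -1.17 ± 0.08 SE (adjusted p = 9.2e-10) in NT and -0.46 ± 0.08 SE (adjusted p = 1.1e-04) in KO. The NT libraries with CB-103 lay lowest of all and did not overlap the KO libraries with CB-103. PGAM1, the phosphoglycerate mutase, measured 571, 546 and 503 CPM with DMSO and 237, 211 and 215 CPM with CB-103 in NT, and 542, 527 and 558 and 301, 293 and 309 CPM in KO. It changed with CB-103 by -1.29 ± 0.06 SE (adjusted p = 1.9e-12) in NT and -0.85 ± 0.06 SE (adjusted p = 8.8e-10) in KO. ENO1, the main enolase, measured 2270.4, 2232 and 2204 CPM with DMSO and 1257, 1224 and 1224 CPM with CB-103 in NT, and 1784, 1813 and 1788 and 1379.6, 1333 and 1473 CPM in KO. It changed by -0.86 ± 0.05 SE (adjusted p = 9.9e-11) and -0.36 ± 0.05 SE (adjusted p = 9.6e-06). GAPDH, often used as a reference gene, measured 4811, 4346 and 4205 CPM with DMSO and 3797, 3236 and 3192 CPM with CB-103 in NT. It fell there (-0.39 ± 0.07 SE, adjusted p = 2.1e-04). Its KO change of 0.15, from 4407, 3941 and 3986 to 4874, 4207 and 4593 CPM, was not called. That KO change had an adjusted p = 0.11, and 0.016 with the replicate number as a block. ENO2, the neuronal enolase, had -0.17 with CB-103 in NT (adjusted p = 0.051, and 0.00397 with the replicate number as a block) and -0.15 with GSI (adjusted p = 0.14, and 0.022 with the block). It was counted as not called in either, since the counts are from the fit without the block. With the block it was called lower in both.

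PKM, the pyruvate kinase gene, measured 889, 810.4 and 809 CPM with DMSO and 511, 479.9 and 469 CPM with CB-103 in NT, and 888, 807 and 830.01 and 685, 633 and 666 CPM in KO. It fell with CB-103 (-0.78 ± 0.06 SE, adjusted p = 1.4e-09 in NT, -0.35 ± 0.06 SE, adjusted p = 5.1e-05 in KO) and with GSI (-0.36 and -0.29). Its transcripts carry one of a pair of mutually exclusive exons of 167 bases each on chromosome 15 (hg38), at 72203022 to 72203188 for the M1 form and 72202454 to 72202620 for the M2 form that proliferating cells use. The M2 form held 94.0 ± 1.05% (SD, n = 3) of the TPM of transcripts with either exon in NT with DMSO and 91.6 ± 0.83% in NT with CB-103. The difference of -2.38 percentage points had an exact two-sided permutation p = 0.1, the smallest that 3 against 3 libraries can give, and an adjusted p = 0.23 over 7 comparisons. In KO the shares were 94.4 ± 0.38% with DMSO and 93.6 ± 0.65% with CB-103, and over the 7 comparisons the differences ran from -2.38 to 1.96 points.

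The largest fall with CB-103 was in a gene of lactate production. LDHA, the M subunit of lactate dehydrogenase, favours the step from pyruvate to lactate, and it measured 2068, 1816 and 1734 CPM in NT with DMSO, 607, 512 and 508 CPM with CB-103 and 1411, 1455 and 1371 CPM with GSI. The KO libraries held 1202, 984 and 996 CPM with DMSO, 483, 426 and 454 CPM with CB-103 and 1012, 919 and 900.02 CPM with GSI. All KO DMSO libraries lay below all NT DMSO libraries, and LDHA had the largest lower difference of any member in KO against NT with DMSO (-0.82 ± 0.09 SE, adjusted p = 2.4e-06). With CB-103 LDHA changed by -1.79 ± 0.09 SE (adjusted p = 1.1e-11) in NT and -1.22 ± 0.09 SE (adjusted p = 2.8e-09) in KO, with no overlap of libraries. With GSI it fell in NT (-0.41 ± 0.09 SE, adjusted p = 0.0022). Its KO change of -0.17 was not called (adjusted p = 0.21, and 0.0299 with the replicate number as a block). Under CB-103 its level was lower in KO than in NT by 0.26, a call that was lost without NT CB-103 replicate 1 or KO CB-103 replicates 2 and 3 (adjusted p = 0.055 to 0.165).

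LDHB, the H subunit, measured 1299.8, 1289 and 1252 CPM with DMSO and 713, 662 and 648 CPM with CB-103 in NT, and 1229, 1179 and 1222 and 839, 773 and 868 CPM in KO. With GSI it measured 981, 1026 and 955 CPM in NT and 1172, 1167 and 1174 CPM in KO. It fell with CB-103 as well (-0.92 ± 0.05 SE, adjusted p = 2.6e-11 in NT, -0.55 ± 0.05 SE, adjusted p = 4.3e-08 in KO). On the TPM scale LDHA made up 58.02 ± 1.84% (SD, n = 3) of the LDHA and LDHB sum in NT with DMSO, 43.2 ± 1.25% with CB-103 and 57.5 ± 0.196% with GSI. In KO the share was 45.3 ± 2.46% with DMSO, 34.2 ± 1.1% with CB-103 and 43.3 ± 1.53% with GSI. The CB-103 libraries lay below the DMSO libraries of their genotype without overlap, and the mean share in KO with DMSO was close to that in NT with CB-103. These shares are given as a description, with no test. They sum all transcripts of a gene. In NT with DMSO, 788 of the 2185 TPM of LDHA were assigned to a transcript annotated for nonsense-mediated decay. The summed TPM of the 17 enzymes from hexokinase to lactate dehydrogenase was 12850.0 ± 654 in NT with DMSO, 7639 ± 318 with CB-103 and 11290.0 ± 727 with GSI, and 11840.0 ± 384, 9665 ± 443 and 10870.0 ± 485 in KO.

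SLC16A1 (MCT1), the carrier that exports lactate with a proton, measured 153, 149 and 146 CPM in NT with DMSO, 171, 169 and 161 CPM with CB-103 and 119.6, 118 and 108 CPM with GSI. In KO it measured 115, 118 and 119.9 CPM with DMSO, 196, 159 and 188 CPM with CB-103 and 108, 106 and 106 CPM with GSI. It rose with CB-103 in KO (0.62 ± 0.06 SE, adjusted p = 2.1e-07) and fell with GSI in NT (-0.37 ± 0.06 SE, adjusted p = 2.7e-04). Its small rise with CB-103 in NT (0.16 ± 0.06 SE, adjusted p = 0.035) was lost without NT DMSO replicates 2 and 3 or NT CB-103 replicates 1 and 2 (adjusted p = 0.0774 to 0.112), under DESeq2 size factors (adjusted p = 0.11) and with gene sums of the transcript estimates, where the change was 0.02. SLC16A3 (MCT4), the lactate exporter of strongly hypoxic cells, stayed between 0.0599 and 0.401 CPM and was called in no comparison.

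**Figure D2:**
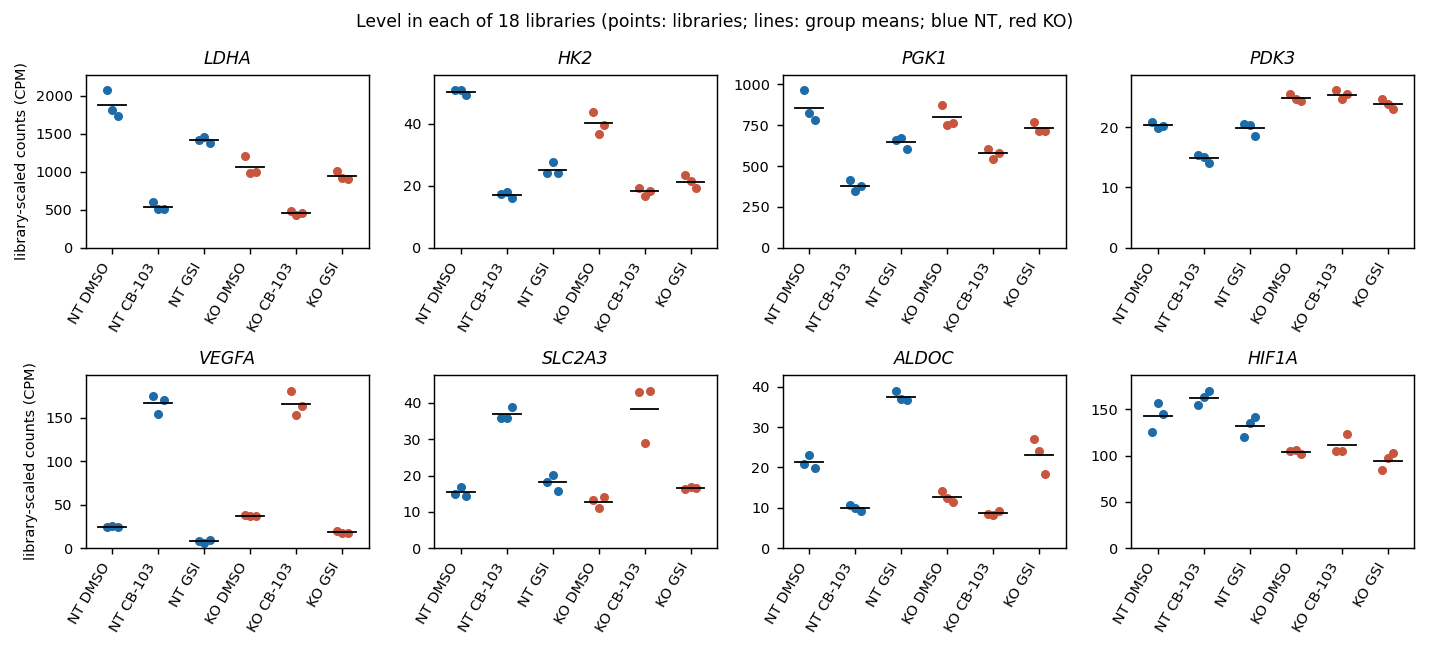
Level of 8 genes in each of the 18 libraries (y axis, TMM-scaled CPM from 0) by group (x axis), with points for libraries, lines for group means, blue for NT and red for KO. LDHA, HK2 and PGK1 are lowest with CB-103, VEGFA and SLC2A3 highest with CB-103, ALDOC highest with GSI, PDK3 falls in NT only, and HIF1A is lower in every KO group than in the NT group of the same treatment.

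**Figure D3:**
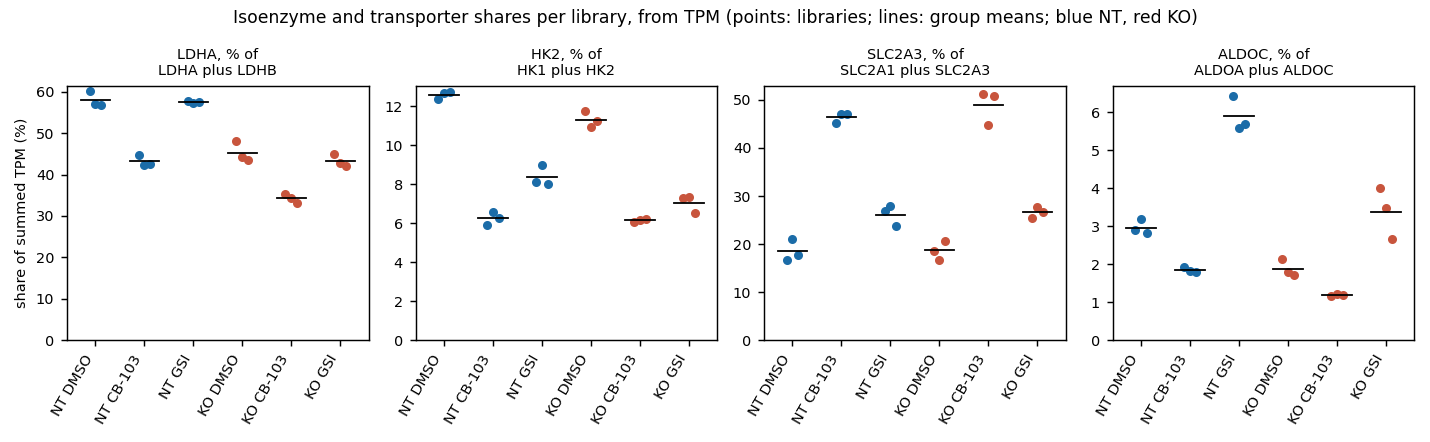
Share of 1 isoenzyme or carrier in the summed TPM of its pair (y axis, %) in each library (points) of the 6 groups (x axis), with lines at group means, blue for NT and red for KO. The LDHA share falls from 58.0% to 43.2% with CB-103 in NT and starts at 45.3% in KO, while the SLC2A3 share rises from 18.5% to 46.4% in NT.

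The regulatory enzymes did not share a direction. PFKFB3 and PFKFB4 make and break the sugar bisphosphate that activates phosphofructokinase. PFKFB3 fell with CB-103 in NT (-0.99 ± 0.14 SE, adjusted p = 6.3e-06) and KO (-0.69), and PFKFB4 rose in NT, from 4.49, 4.999 and 4.27 to 7.91, 7.96 and 7.55 CPM (0.77 ± 0.11 SE, adjusted p = 1.4e-05), and in KO (0.48). Neither was called with GSI against DMSO. Under GSI PFKFB3 measured 14.3, 13.8 and 12.9 CPM in NT and 18.8, 19.6 and 18.2 CPM in KO, and under CB-103 8.39, 10.3 and 11.3 CPM in KO. PFKFB2, another isoform, had the reverse pattern: it fell with GSI in NT, from 13.8, 14.9 and 12.4 to 7.99, 9.54 and 10.5 CPM (-0.55 ± 0.12 SE, adjusted p = 0.0021), and in KO (-0.75 ± 0.12 SE, adjusted p = 1.8e-04), and was not called with CB-103, where it measured 15.5, 14.3 and 15.6 CPM in NT and 14.2, 15.2 and 19.5 CPM in KO. The other KO levels were 16.8, 18.7 and 17.4 CPM with DMSO and 11.2, 9.71 and 10.5 CPM with GSI. Its higher level in KO with DMSO (0.36) was lost without NT DMSO replicates 1 and 3 or KO DMSO replicates 2 and 3 (adjusted p = 0.0695 to 0.134).

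Pyruvate dehydrogenase kinases inhibit pyruvate dehydrogenase, which feeds pyruvate into mitochondrial oxidation, and PDK1 is a classical HIF1 target. PDK1 fell with CB-103, from 29.5, 25.03 and 28.7 to 15.7, 11.6 and 13.6 CPM in NT (-1.02 ± 0.11 SE, adjusted p = 1.5e-07) and by -0.69 ± 0.10 SE, adjusted p = 2.3e-05 in KO, and with GSI to 18.2, 15.8 and 18.8 CPM in NT (-0.66 ± 0.10 SE, adjusted p = 1.5e-04). In KO it measured 18.9, 18.8 and 18.9 CPM with CB-103 and 20.6, 23.1 and 25.001 CPM with GSI. PDK3 measured 20.9, 19.8 and 20.2 CPM in NT with DMSO and 15.5, 15.1 and 14.1 CPM with CB-103, against 25.4, 24.6 and 24.3 and 26.1, 24.6 and 25.5 CPM in KO. All 3 NT CB-103 libraries lay below every other library, while the KO libraries with DMSO and with CB-103 overlapped. PDK3 fell with CB-103 in NT (-0.45 ± 0.06 SE, adjusted p = 3.2e-06) and was higher in KO than in NT under DMSO (0.29 ± 0.06 SE, adjusted p = 0.0013), under CB-103 (0.77 ± 0.06 SE, adjusted p = 2.7e-08) and under GSI (0.26 ± 0.06 SE, adjusted p = 0.002).

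Among the oxygen-sensing genes the clearest difference was between genotypes. HIF1A measured 126, 157 and 145 CPM in NT with DMSO and 105, 106 and 101 CPM in KO with DMSO, and the groups did not overlap. Under CB-103 it measured 154, 164 and 170.4 CPM in NT and 105, 105 and 123 CPM in KO, and under GSI 120.1, 135 and 142 and 84.2, 96.9 and 103.1 CPM. It was lower in KO under DMSO (-0.46 ± 0.09 SE, adjusted p = 9.9e-04), CB-103 (-0.55 ± 0.09 SE, adjusted p = 9.4e-05) and GSI (-0.48 ± 0.09 SE, adjusted p = 4.6e-04). Against DMSO neither inhibitor gave a called change in HIF1A in either genotype, with 0.19 for CB-103 in NT at adjusted p = 0.071, which became 0.012 with the replicate number as a block. EGLN1 and EGLN3, the hydroxylases PHD2 and PHD3, were low, at 8.07 to 20.5 CPM and 1.24 to 2.90 CPM. EGLN1 measured 12.5, 12.7 and 9.95 CPM with DMSO, 19.8, 16.9 and 12.3 CPM with CB-103 and 9.41, 8.07 and 8.60 CPM with GSI in NT, and 20.5, 17.8 and 14.6 CPM with DMSO and 17.9, 13.9 and 17.6 CPM with GSI in KO. It was higher in KO than in NT under GSI (0.92 ± 0.19 SE, adjusted p = 0.001) and under DMSO (0.59 ± 0.18 SE, adjusted p = 0.027), the latter lost without NT DMSO replicate 3 or KO DMSO replicates 1 and 2 (adjusted p = 0.0667 to 0.125). With GSI in NT the EGLN1 value of -0.43 had an adjusted p = 0.11, which became 0.0496 with the block. The other calls against DMSO or NT for these hydroxylases were each lost when a library was left out: EGLN1 with CB-103 in NT (0.48) without NT DMSO replicate 3 or NT CB-103 replicates 1 and 2 (adjusted p = 0.0723 to 0.185), EGLN3 with CB-103 in NT (-0.51) without NT DMSO replicate 1 or NT CB-103 replicate 2 (adjusted p = 0.143 to 0.283), and EGLN3 in KO with DMSO (-0.62) without NT DMSO replicate 1 or KO DMSO replicates 1, 2 and 3 (adjusted p = 0.0648 to 0.215).

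The hypoxia targets were not a unit. VEGFA, the vascular growth factor and a textbook HIF1 target, measured 24.6, 24.8 and 24.2 CPM in NT with DMSO, 174, 154 and 170.1 CPM with CB-103 and 8.19, 6.04 and 8.86 CPM with GSI. In KO it measured 37.97, 36.5 and 37.3 CPM with DMSO, 181, 153 and 163 CPM with CB-103 and 19.4, 17.3 and 17.5 CPM with GSI. The 3 treatments did not overlap in either genotype, with CB-103 highest and GSI lowest. VEGFA rose with CB-103 by 2.76 ± 0.09 SE (adjusted p = 4.0e-14) in NT and 2.15 ± 0.09 SE (adjusted p = 1.3e-12) in KO, the largest change of any member against DMSO. With GSI it changed by -1.66 ± 0.10 SE (adjusted p = 1.7e-09) in NT and -1.04 ± 0.09 SE (adjusted p = 3.3e-07) in KO. It was higher in KO than in NT with DMSO (0.60 ± 0.09 SE, adjusted p = 8.4e-05) and with GSI (1.22 ± 0.10 SE, adjusted p = 1.4e-07), and under CB-103 the difference was -0.01 and not called.

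BNIP3 and ANKRD37 fell with CB-103. BNIP3, a mitophagy receptor, measured 33.4, 27.3 and 26.1 CPM with DMSO, 17.8, 14.5 and 13.7 CPM with CB-103 and 30.9, 28.9 and 26.8 CPM with GSI in NT, so that CB-103 alone was separated from DMSO (-0.91 ± 0.16 SE, adjusted p = 7.4e-05, with GSI not called). In KO it measured 24.6, 18.05 and 17.1 CPM with DMSO, 15.7, 12.8 and 13.3 CPM with CB-103 and 32.1, 21.8 and 23.3 CPM with GSI. Its fall with CB-103 in KO (-0.51) was lost without KO DMSO replicate 1 or without KO CB-103 replicate 2 (adjusted p = 0.0515 to 0.105), and its lower level in KO with DMSO (-0.54) without NT DMSO replicate 1 or KO DMSO replicates 2 and 3 (adjusted p = 0.0774 to 0.0977). ANKRD37, an ankyrin-repeat protein, fell in NT from 3.37, 3.09 and 3.03 to 1.82, 1.37 and 1.46 CPM (-1.02 ± 0.18 SE, adjusted p = 8.4e-05). In KO its fall of 0.56 was lost without KO CB-103 replicate 1 (adjusted p = 0.0565).

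NDRG1, a stress-response protein induced by hypoxia, rose with both inhibitors in both genotypes, the one member that did. It measured 16.6, 16.6 and 17.7 CPM with DMSO, 23.3, 22.2 and 20.4 CPM with CB-103 and 25.9, 24.8 and 24.2 CPM with GSI in NT, and its rises ran from 0.37 ± 0.07 SE (adjusted p = 9.1e-05) with CB-103 in NT to 0.56 ± 0.07 SE (adjusted p = 6.2e-06) with GSI in NT. It was also higher in KO than in NT under DMSO (0.39 ± 0.07 SE, adjusted p = 2.6e-04), with 21.9, 22.1 and 22.9 CPM in KO, and 33.1, 32.6 and 31.4 CPM there with GSI. P4HA1, a collagen prolyl hydroxylase, rose with CB-103 (0.34 ± 0.09 SE, adjusted p = 0.0036 in NT, 0.54 ± 0.09 SE, adjusted p = 8.6e-05 in KO), in KO from 45.3, 38.7 and 35.3 to 61.2, 53.9 and 58.1 CPM. MXI1, an antagonist of MYC, fell with both inhibitors in both genotypes, by 0.40 to 0.60 on the log2 scale, and its fall with GSI in KO was lost without KO DMSO replicate 3 or without KO GSI replicate 2 (adjusted p = 0.0505 to 0.0839). Under CB-103 it measured 10.2, 10.2 and 8.22 CPM in NT and 9.08, 6.66 and 7.16 CPM in KO.

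KDM3A, a histone demethylase that HIF1 induces, rose with CB-103 in NT, from 109, 105 and 101 to 152, 148 and 147 CPM (0.51 ± 0.05 SE, adjusted p = 1.5e-07). In KO the groups overlapped, at 99.998, 93.5 and 101 CPM with DMSO and 102.7, 100.1 and 112 CPM with CB-103. ADM, which encodes adrenomedullin, had 0 counts in all 18 libraries and was not tested: it was not detectable at this depth, where a count of 0 allows up to 3 counts, or 0.0986 CPM in the smallest library, for counting error only.

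The CB-103 response of the pathway differed between NT and KO cells. The interaction contrast, the KO response minus the NT response, was positive and called for 18 of 36 members and negative and called for 2 (background 10.3% and 4.34%, 14.6% in all), with a median of 0.33 against 0.01 over all genes. No member had a called interaction of 2-fold or more, where 1.75% of all genes did. Of the 17 enzymes from hexokinase to lactate dehydrogenase, 16 had a positive called interaction. ENO2 was the exception at 0.21 (adjusted p = 0.19, and 0.0311 with the replicate number as a block). Each of the 16 was among the falls with CB-103 in NT, and in KO cells the change lay closer to 0 or, for ALDOA and GAPDH, above it.

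PGK1 had the largest interaction among the enzymes (0.71 ± 0.11 SE, adjusted p = 5.2e-04), from a change of -1.17 in NT to -0.46 in KO. LDHA followed with 0.56 ± 0.12 SE (adjusted p = 0.0051), and ALDOC (0.54), ALDOA (0.54 ± 0.07 SE, adjusted p = 7.5e-05), GAPDH (0.53 ± 0.10 SE, adjusted p = 0.0022), ENO1 (0.49 ± 0.07 SE, adjusted p = 2.1e-04), TPI1 (0.44 ± 0.08 SE, adjusted p = 0.0014) and PGAM1 (0.44 ± 0.08 SE, adjusted p = 0.0013) came next. For PGK1, ALDOA, GAPDH, PGAM1, TPI1 and 7 further enzymes the level under CB-103 was itself higher in KO than in NT. For LDHA, HK2 and ALDOC the DMSO level was lower in KO, and under CB-103 none of them was called higher in KO. With DMSO, ENO1 (mean 1795 CPM in KO against 2235 in NT) and the carrier SLC16A1 (118 against 149) were lower in KO too. Under CB-103 ENO1 was higher in KO (1395 against 1235 CPM), and the SLC16A1 libraries overlapped. Outside the enzymes the interaction was called and positive for PDK3 (0.48 ± 0.08 SE, adjusted p = 7.3e-04) and SLC16A1 (0.46 ± 0.09 SE, adjusted p = 0.0021), and negative for VEGFA (-0.61 ± 0.12 SE, adjusted p = 0.0027) and KDM3A (-0.41 ± 0.07 SE, adjusted p = 0.0012).

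Among the called interactions, 4 did not hold when single libraries were left out. HK1 (0.27) lost the call without NT DMSO replicates 1, 2 and 3, NT CB-103 replicates 2 and 3, KO DMSO replicates 2 and 3 or KO CB-103 replicates 1 and 3 (adjusted p = 0.0515 to 0.139). HK2 (0.42) lost it without NT CB-103 replicate 3, KO DMSO replicates 2 and 3 or KO CB-103 replicates 1 and 3 (adjusted p = 0.0648 to 0.0927). PFKM (0.39) lost it without NT DMSO replicate 1, NT CB-103 replicates 2 and 3, KO DMSO replicate 3 or without KO CB-103 replicates 1 and 3 (adjusted p = 0.0567 to 0.0825), and ALDOC (0.54) without NT DMSO replicates 1 and 2, NT CB-103 replicates 2 and 3, KO DMSO replicates 2 and 3 or KO CB-103 replicates 1, 2 and 3 (adjusted p = 0.0525 to 0.105). The mean mitochondrial share was 3.34% with DMSO and 5.23% with CB-103 in NT, and 1.79% and 2.24% in KO. With those genes left out of the counts, the interaction was still called for 20 members, 18 positive and 2 negative.

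**Figure D4:**
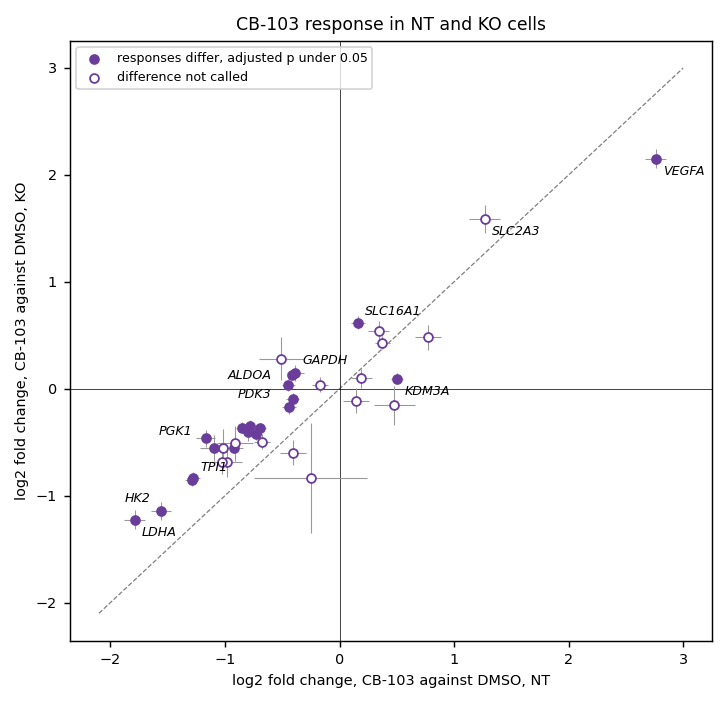
Log2 fold change of each of the 36 tested genes with CB-103 in NT (x axis) and in KO (y axis), with bars of 1 standard error, a dashed line where both are equal, and filled points where the interaction had an adjusted p under 0.05. The filled enzyme points lie above the line, PGK1 at -1.17 and -0.46 for example, and VEGFA and KDM3A lie below it.

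For GSI the interaction was called for 2 members, both positive (background 2.1% higher, 0.692% lower, 2.79% in all), with 8 at an unadjusted p under 0.05. LDHB had 0.33 ± 0.07 SE (adjusted p = 0.028), lost without NT DMSO replicates 1 and 2, NT GSI replicate 1 or KO GSI replicates 2 and 3 (adjusted p = 0.0589 to 0.0758). VEGFA had 0.62 ± 0.14 SE (adjusted p = 0.031), lost without NT DMSO replicates 1, 2 and 3, NT GSI replicate 1 or KO GSI replicates 1, 2 and 3 (adjusted p = 0.0502 to 0.0758). No library decided the direction of either. With the replicate number as a block, ALDOA, TPI1, PGK1, ENO1 and BNIP3 were called as well, all positive (adjusted p = 0.0273 to 0.0492). The members' median was 0.16 against 0.02 over all genes, and 0 members passed 2-fold (background 0.311%).

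Over all tested genes, 29.5% rose and 28.7% fell with CB-103 in NT, and 9.67% and 15% with GSI. In KO these shares were 24.9% and 23.7% with CB-103, and 9.69% and 9.58% with GSI. In the pentose phosphate pathway, which draws phosphorylated glucose off to make NADPH and ribose, 5 of 7 tested genes rose and 2 fell with CB-103 in NT, the falls being RPIA (-1.04 ± 0.05 SE, adjusted p = 4.6e-12) and PGLS (-0.74 ± 0.07 SE, adjusted p = 8.8e-08). In KO 5 rose and 2 fell with CB-103. With GSI 3 of 7 fell and 0 rose in NT, and none was called in KO. Of 12 tested genes for pyruvate entry to mitochondria, 6 fell and 0 rose with CB-103 in NT, and 5 fell and 0 rose with GSI. In KO 2 fell and 1 rose with each inhibitor, and the list's median was -0.10 with CB-103 and -0.02 with GSI, against -0.31 and -0.12 in NT. Pyruvate carboxylase (PC) changed by -0.80 and DLAT, a pyruvate dehydrogenase subunit, by -0.60 with CB-103 in NT.

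Of 33 listed genes for other glucose handling, 19 were tested, and 5 rose and 5 fell with CB-103 in NT, shares near those of all tested genes. With GSI in NT 1 rose and 6 fell, and in KO 8 rose and 4 fell with CB-103 and 3 rose and 1 fell with GSI. TXNIP and ARRDC4, arrestin family members that restrain glucose uptake, rose with CB-103 in NT (1.72 ± 0.07 SE, adjusted p = 4.1e-13 and 1.53 ± 0.12 SE, adjusted p = 3.9e-09). BSG, the chaperone that brings lactate carriers to the membrane, fell with CB-103 in NT (-1.21 ± 0.10 SE, adjusted p = 9.3e-09). In KO the CB-103 changes of TXNIP, ARRDC4 and BSG were 1.58, 1.08 and -0.57. Of 39 further genes of oxygen sensing and hypoxia, 30 were tested, and 10 rose and 9 fell with CB-103 in NT, 4 rose and 5 fell with GSI. In KO 9 rose and 6 fell with CB-103, and 2 rose and 2 fell with GSI. These shares are near those of all tested genes. MIR210HG, the host transcript of a hypoxia-induced miRNA, fell with CB-103 (-1.84 ± 0.36 SE, adjusted p = 2.5e-04), and PLOD1, a collagen lysyl hydroxylase, rose (1.08 ± 0.05 SE, adjusted p = 1.8e-12). The median of that hypoxia list was 0.01 with CB-103 and -0.01 with GSI in NT, near the all-gene medians of 0.04 and 0.01.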

How the data were processed

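The deposited gene table holds estimated counts as whole numbers, which its name calls rounded raw counts, and the deposited transcript files hold estimated counts and TPM values in the Salmon format. Build hg38, Salmon 1.4.0, HISAT2 2.2.1, FastQC 0.11.9 and bcl2fastq 2.20 appear in the submitters' processing notes, with no role or order. How transcripts were summed to genes is not stated there. A deposited table of transformed values was not used. Libraries were polyA-selected and strand-specific, per the labels' protocols.

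Counts were tested with edgeR 4.0.16 (R 4.3.3): filterByExpr by group left 17346 genes and 36 members, TMM factors ran from 0.95 to 1.03, and glmQLFTest contrasts were taken from 1 fit over all 18 libraries with 12 residual degrees of freedom. Calls are at a Benjamini-Hochberg adjusted p under 0.05 over all genes tested. Fold changes are edgeR's, with its prior count, and standard errors are the log2 fold change divided by the root of F. Promoter windows came from RefSeq and were read by symbol. Members and lists were chosen with earlier results of these data known. Values per library were given for the 4 largest called falls and rises of each comparison above 5 CPM, for members called in opposite directions by the inhibitors and for called interactions. Those of SLC2A1, of ANKRD37 (below 5 CPM) and of PIK3R1 were given outside that rule. Alternatives were DESeq2 1.42.0 size factors and Wald test, limma 3.58.1 voom, no count filter, only the groups compared, a replicate block, left-out libraries, replicates 2 and 3 only, transcript sums, no mitochondrially encoded genes, pseudogene counts added and a fold of at least 2. Same-numbered libraries deviated together (every r above 0.1) only for CB-103 in NT (0.12 to 0.34) and GSI in NT (0.13 to 0.28), so these count as paired. Replicate 1 libraries deviated together in every comparison (r from 0.272 to 0.339). Calls are from the fit without the block unless a sentence names the block. Pseudogenes, picked by symbol, held at most 5.19% of the summed counts of BNIP3 and its pseudogenes. For PGAM1 the highest such share was 3.46%.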

Additional observations from a re-analysis of the deposited data

Results flagged for a closer look

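The response to an inhibitor differed between NT and KO cells, by the interaction test of edgeR at an adjusted p under 0.05, for 20 members with CB-103 and 2 with GSI. Values are the KO response minus the NT response on the log2 scale, and the causes were not tested. With CB-103 the hexokinases gave 0.27 for HK1 and 0.42 for HK2, GPI gave 0.32, and the phosphofructokinases gave 0.30 for PFKL, 0.39 for PFKM and 0.33 for PFKP. The aldolases gave 0.54 for both ALDOA and ALDOC, TPI1 gave 0.44 and GAPDH 0.53. PGK1 gave 0.71, PGAM1 0.44, ENO1 0.49 and PKM 0.43, the dehydrogenases 0.56 for LDHA and 0.37 for LDHB, the carrier SLC16A1 0.46 and the kinase PDK3 0.48. VEGFA gave -0.61 and KDM3A -0.41, whose rises were larger in NT cells. With GSI the interaction was 0.33 for LDHB and 0.62 for VEGFA.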

How the results depend on the processing

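No named member changed direction in any alternative run. Adding a fold change of at least 2 to the threshold left 10 called members for CB-103 and 1 for GSI in NT, 4 and 1 in KO, 0, 0 and 1 for KO against NT under DMSO, CB-103 and GSI, 5 and 4 for CB-103 against GSI in NT and KO, and 0 for both interactions. The GSI interaction, 2 members as reported, gave 5 with the DESeq2 Wald test, 1 with no count filter, 4 with transcript sums, 4 without mitochondrially encoded genes, 0 with replicates 2 and 3 only, and 0 to 5 with 1 library left out. Transcript sums gave 22 members for KO against NT under GSI (14 higher, 8 lower), against 14. With the replicate number as a block, 34 and 23 members were called for CB-103 and GSI in NT, 27 and 19 in KO, 15, 22 and 16 for KO against NT under DMSO, CB-103 and GSI, 30 and 23 for CB-103 against GSI, 22 for the CB-103 interaction and 7 for the GSI interaction. In the 2 paired NT comparisons the block added ENO2 and HIF1A for CB-103 and ENO2 and EGLN1 for GSI and changed no other call. In the others, the lowest deviation correlation of same-numbered libraries ran from 0.033 to 0.091. Their replicate 1 libraries still deviated together, with r from 0.272 to 0.339. The PKM M2 share with GSI in KO differed by -0.016 points from estimated reads, against 0.283 from TPM, a change of sign in a difference that no test called. Leaving out 1 library gave 29 to 33 called members for CB-103 in NT, 21 for GSI in NT and 16 to 21 for the CB-103 interaction. Of 94 named member and comparison pairs, 15 lost the call in at least 1 setting and 0 changed sign. The cause of these changes was not tested. SLC16A3, at most 0.401 CPM, had the widest error of the members for CB-103 in NT (0.49 SE).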
